A study of Mus musculus with 30 samples.

Results

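Transcripts of 9 cytokine genes were followed in cultured tumor cells: Il15 and its receptor chain Il15ra, Il18 and its soluble decoy Il18bp, and the ligands Il6, Il7, Il33, Il34 and Tnfsf13b. They were taken as a list of named genes, matched by Ensembl identifier, and are 9 of the 49315 genes counted. Each of the 9 had at least 10 reads over all libraries combined, the minimum that left 21138 genes to test. RNA sequencing was performed on B16F10 melanoma cells and on 6694c2 cells, a pancreatic ductal adenocarcinoma (PDAC) line, both of mouse, in 24 libraries (8 groups of 3). Cells of both lines spent 24 h in culture with vehicle, interferon (IFN) γ at 100 ng/mL, IFNβ at 1000 U/mL or a STING agonist at 225 μg/mL, so the question for each gene was whether a tumor cell given one of these agents carried more or less of its transcript. The 6694c2 line came from female mice whose alleles included a floxed p53 allele, Pdx-cre and a floxed YFP reporter, and each line was 1 source of cells. The labels do not say whether the 3 libraries of a group came from separate cultures, so p-values measure the spread between these libraries, which may be technical.

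Interleukins are secreted proteins by which cells instruct lymphocytes and myeloid cells. IL-15 is unusual among them, because the producing cell holds it on its own IL-15Rα chain (Il15ra) and presents it to NK cells and CD8+ T cells that carry the IL-2Rβ and common γ chains. IL-18 is made as a precursor that caspase-1 cleaves, it drives IFNγ production by T and NK cells, and the IL-18 binding protein (Il18bp) captures it before it reaches its receptor. IL-33 is stored in the nucleus of epithelial cells as an alarm signal, IL-7 and BAFF (Tnfsf13b) keep T and B lymphocytes alive, IL-6 signals through gp130, and IL-34 is a ligand of the CSF-1 receptor. IFNγ acts mainly at gamma-activated sites in DNA, and IFNβ at interferon-stimulated response elements.

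Upstream sequences show what lies just before the start of Il6, Il15ra and Il18, which were called with an interferon, and of Tnfsf13b, which passed no test against vehicle. RefSeq promoter windows (GRCm38.p6, 250 bases before to 50 after each start) matched 6 of the 9 genes, some by more than 1 window, and Il15, Il7 and Il34 had no entry. Both strands were searched for the core of an interferon-stimulated response element (GAAANNGAAA, in 3.44% of 32851 windows), of a gamma-activated site (TTCNNNGAA, 8.3%) and of a kappaB site (GGGNNTTTCC, 1.63%). Matches were found in Il6 and in the second of the Tnfsf13b windows. The Il6 sequence is printed because it holds a kappaB core, in capitals, with its first base 44 bases before the start. Those of Il15ra, whose response differed between the lines, and of Il18, a transcript of B16F10 cells, hold none of the 3 letter patterns. The stretch of Tnfsf13b holds the response element core, in capitals, with its first base 16 bases before the second start. Of the 250 bases before that start, 166 lie in exons of Tnfsf13b itself, among them the whole printed stretch. A match is a description of letters and not a bound site. All 4 genes are on the + strand.
Il6, chr5:30012864-30013113: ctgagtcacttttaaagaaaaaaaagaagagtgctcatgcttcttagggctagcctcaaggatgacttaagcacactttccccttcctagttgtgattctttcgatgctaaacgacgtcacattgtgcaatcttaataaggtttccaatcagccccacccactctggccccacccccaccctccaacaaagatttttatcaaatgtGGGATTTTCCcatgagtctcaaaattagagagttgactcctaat
Il15ra, chr2:11705043-11705289: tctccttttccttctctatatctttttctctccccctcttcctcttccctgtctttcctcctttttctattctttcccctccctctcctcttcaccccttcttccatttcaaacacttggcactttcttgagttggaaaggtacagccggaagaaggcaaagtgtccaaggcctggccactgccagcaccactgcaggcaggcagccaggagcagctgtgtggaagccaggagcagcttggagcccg
Il18, chr9:50554450-50554699: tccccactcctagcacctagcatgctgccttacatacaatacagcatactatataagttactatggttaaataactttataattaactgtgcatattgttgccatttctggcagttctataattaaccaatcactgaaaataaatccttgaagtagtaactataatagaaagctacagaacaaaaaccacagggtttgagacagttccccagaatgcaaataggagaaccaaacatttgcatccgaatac
Tnfsf13b, chr8:10006607-10006632: tacaaaaactGAAAGTGAAAtgcgga

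The libraries held between 15543131 and 32266795 reads assigned to genes. The melanocyte markers summed to between 14675.3 and 18544.0 CPM (counts scaled to a common library size) in B16F10 libraries, and the ductal epithelial markers to between 12789.8 and 15078.4 CPM in 6694c2 libraries (in the other line, 18.5 to 129.1 and 13.6 to 135.4 CPM). Some libraries also held reads of genes of the other line. Over 152 genes at 50 CPM or more in every 6694c2 group and below 2% of that in B16F10 cells, the median level in B16F10 libraries, as a share of that in 6694c2 cells, was 0.154% to 0.21% with vehicle, 0.166% to 0.357% with IFNγ, 0.193% to 0.496% with IFNβ and 0.79% to 1.01% with STING agonist. Over 101 genes of B16F10 cells, the share in 6694c2 libraries was 0.576% to 0.648% with vehicle, 0.304% to 0.966% with IFNγ, 0.25% to 0.357% with IFNβ and 0.219% to 0.286% with STING agonist. The 7 T cell markers summed to 1.36 to 2.64 CPM in B16F10 and 2.96 to 6.22 CPM in 6694c2 libraries. Of these, Cd3d, Cd3e, Cd4 and Cd8a had 0 reads with vehicle in both lines, while Trac was at 5.26 CPM (269 reads) in 6694c2 and Lat at 2.14 CPM (154 reads) in B16F10 vehicle libraries. Among B cell markers the summed level was 59.1 to 67.7 CPM in 6694c2 IFNβ libraries against 27.1 to 35 CPM with vehicle, and Pax5 took most of the difference (35.3 against 1.33 CPM). In B16F10 libraries the B cell sum was 31.4 to 41.8 CPM with IFNγ against 12.8 to 27 CPM with vehicle, where Cd79a, Ighm and Igkc were called higher, and the part of such reads in the results was not tested. In a bulk library, fewer cells of a kind and less RNA per cell cannot be told apart.

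Both interferons raised a subset of the 9 transcripts in both lines, and the STING agonist raised or lowered none of them past the threshold. With IFNγ, B16F10 cells had 4 of 9 called, each of them higher (Il15, Il15ra, Il18 and Il18bp), where 2529 of the 21138 genes tested were called higher and 22.8% were called in either direction. With IFNβ, 5 of 9 were higher in B16F10 cells (Il15, Il18, Il18bp, Il6 and Il34), and 12.7% of all genes were. In 6694c2 cells, IFNγ raised 4 of 9 (Il15, Il15ra, Il18bp and Il7) against 7.89% of all genes. IFNβ raised 5 of 9 there (Il15, Il15ra, Il18bp, Il6 and Il7) against 10.4%, and lowered Il33, where 7.86% of all genes were lower. A call is a p under 0.05 from edgeR's quasi-likelihood fit after adjustment over the 21138 genes by the Benjamini-Hochberg method. Over all 9 genes the median log2 fold change was 1.80 and 1.73 with IFNγ and IFNβ in B16F10 cells and 1.87 and 1.98 in 6694c2 cells, where the medians over all genes tested lay between 0.000 and 0.019. Fitted changes of genes with 3 reads or fewer in a group enter these medians. With such groups set to the floor of 3 reads, and with no change taken where both groups were at or under it, the medians were 1.59 and 0.77 in B16F10 cells and 1.28 and 1.49 in 6694c2 cells. Comparisons within a line share its vehicle libraries. The plot of levels by library shows Il18bp and Il15 high with IFNγ in both lines, Il18 at more than a trace in B16F10 cells alone, and Il33, Il34 and Tnfsf13b higher in 6694c2 libraries than in B16F10 libraries.

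**Figure D1:**
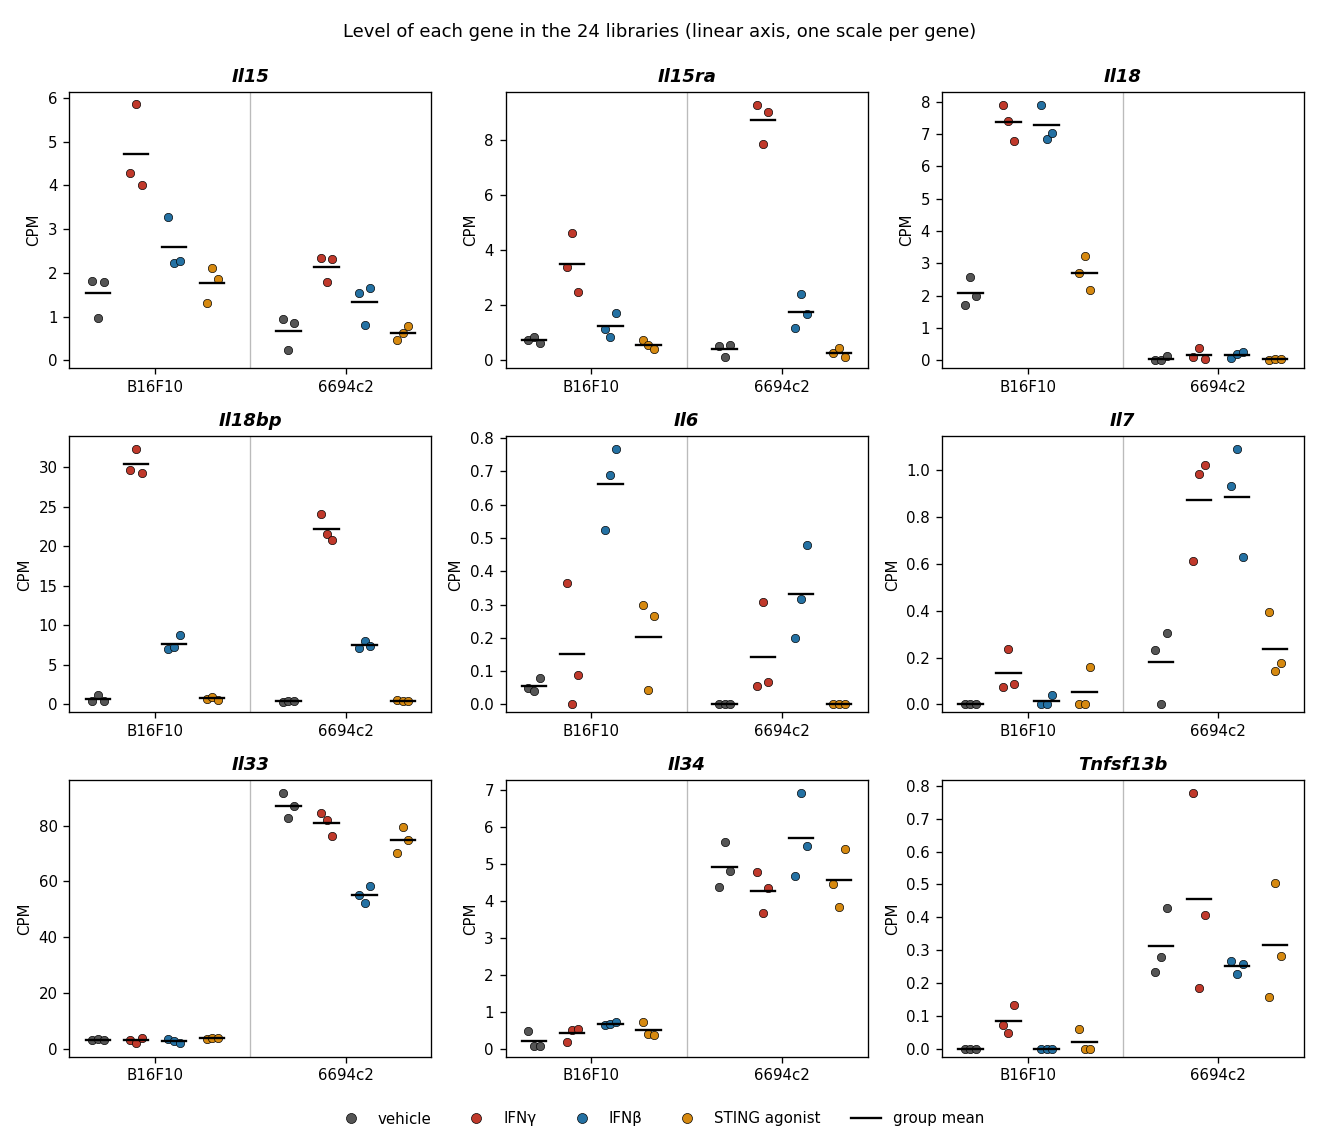
Level of each of the 9 genes in CPM (linear axis from 0, a separate scale for each gene) in the 24 libraries, as points by line and treatment, with a line at each group mean. Il18bp reached 29.3 to 32.3 CPM in the B16F10 IFNγ libraries from 0.391 to 1.16 CPM with vehicle, and Il33 lay between 52.1 and 91.8 CPM in every 6694c2 library and below 4 CPM in every B16F10 library.

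Il18bp, the decoy of IL-18, had the largest change of the 9 in both lines with IFNγ. In B16F10 cells its level was 0.43, 1.16 and 0.391 CPM with vehicle and 29.6, 32.3 and 29.3 CPM with IFNγ. The IFNβ libraries lay between, at 7.02, 7.24 and 8.81 CPM. These groups did not overlap, and vehicle replicate 2 held the most of the vehicle libraries. On the log2 scale the change was 5.49 ± 0.168 (SE, adjusted p = 1.34e-113, edgeR) with IFNγ and 3.51 ± 0.194 (adjusted p = 2.99e-52, edgeR) with IFNβ, and without vehicle replicate 2 these values were 6.20 and 4.23. With STING agonist the level was 0.657, 0.996 and 0.584 CPM, inside the range of vehicle (log2 fold change 0.18 ± 0.317, adjusted p = 0.9, edgeR).

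In 6694c2 cells Il18bp also rose with both interferons. Its level was 0.292, 0.391 and 0.488 CPM with vehicle and 24.1, 21.5 and 20.8 CPM with IFNγ. With IFNβ it was 7.12, 7.96 and 7.37 CPM. No library of one group entered the range of another. The log2 fold change was 5.82 ± 0.202 (adjusted p = 2.90e-26, edgeR) with IFNγ and 4.28 ± 0.226 (adjusted p = 1.19e-19, edgeR) with IFNβ. The STING agonist libraries held 0.591, 0.468 and 0.387 CPM (log2 fold change 0.30 ± 0.369, adjusted p = 0.898, edgeR). The vehicle group of 20 reads was at 1.28% of the highest B16F10 level, beside a median share of 0.605% for genes of B16F10 cells. The part of such reads in these fold changes was not tested. The effect of IFNγ on Il18bp did not pass a test of difference between the lines (difference 0.32 ± 0.424 on the log2 scale, adjusted p = 0.772, edgeR). Il18bp lies on chromosome 7 at 102014885 to 102018690 (GRCm38, - strand), where 80 of its 3026 exonic bases overlap Numa1 on the other strand, and without a stated strand setting reads there cannot be assigned.

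Il18, the cytokine that Il18bp captures, was a B16F10 transcript. It was at 1.72, 2.57 and 1.99 CPM with vehicle in that line, at 7.91, 7.41 and 6.78 CPM with IFNγ and at 7.91, 6.86 and 7.03 CPM with IFNβ. The ranges of the interferons overlapped each other and both lay above vehicle. On the log2 scale the change was 1.80 ± 0.171 (adjusted p = 2.28e-21, edgeR) with IFNγ and 1.79 ± 0.171 (adjusted p = 3.76e-21, edgeR) with IFNβ. The libraries with STING agonist held 2.69, 3.21 and 2.18 CPM and overlapped vehicle (adjusted p = 0.461, edgeR). In 6694c2 cells the gene had 2 reads over the 3 vehicle libraries, 9 with IFNγ, 13 with IFNβ and 2 with STING agonist. The ratio of CPM to vehicle there was 3.63 with IFNγ (exact 95% interval 0.752 to 34.6, counting error only) and 4.22 with IFNβ (0.955 to 38.5), so no change was detectable at this depth. The vehicle level in 6694c2 cells was 0.552% of the highest B16F10 level, where the median of the B16F10 genes described above was 0.605% of theirs. With IFNγ and IFNβ the level was 2.32% and 2.29% of it, beside medians of 0.622% and 0.31%. Those B16F10 genes were chosen below 2%, so a level over 2% lies above their median by construction. The part of such reads was not tested.

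The proportion of decoy to cytokine was read within each B16F10 library. Per kilobase of exon, the ratio of Il18bp to Il18 was 0.102 ± 0.0462 with vehicle (mean ± SD, n = 3), 1.41 ± 0.118 with IFNγ, 0.363 ± 0.0623 with IFNβ and 0.0935 ± 0.0115 with STING agonist. Every IFNγ library lay above every IFNβ library, and every IFNβ library above every vehicle library. With IFNβ (581 reads of Il18bp, 549 of Il18), which gene is above the other depends on the exonic lengths used (3026 and 1031 bases). With 3 libraries against 3, the smallest p that an exact permutation test can give is 0.1, and both interferons reached it against vehicle (two-sided, 9 tests over both ratios and lines, Benjamini-Hochberg adjusted p = 0.225). These ratios were chosen after the values had been seen.

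**Figure D2:**
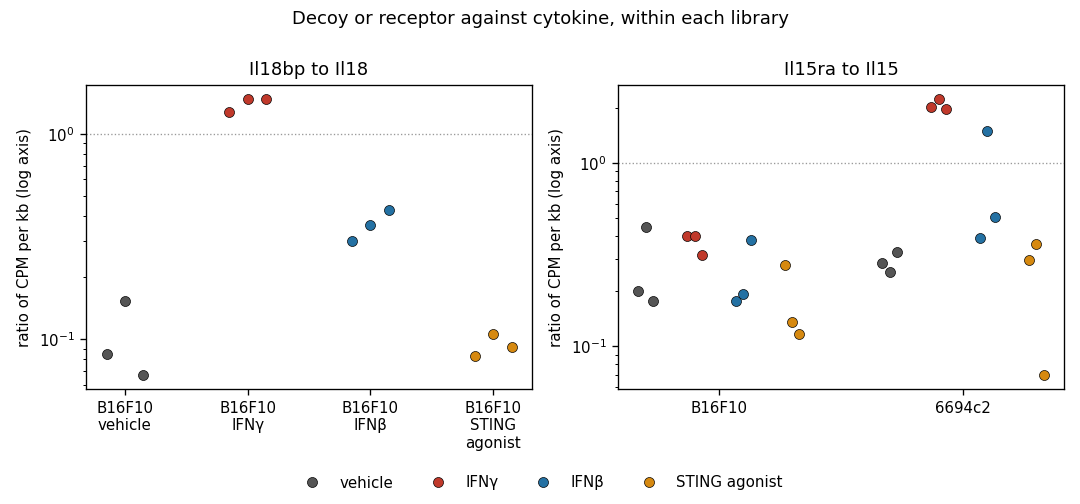
Ratio of CPM per kilobase of exon within each library, on a log axis, for Il18bp to Il18 in B16F10 cells and for Il15ra to Il15 in both lines, 1 point per library and colors for treatments. The dotted line marks equal levels, which the B16F10 IFNγ libraries exceed for Il18bp to Il18 (1.27 to 1.48) and the 6694c2 IFNγ libraries for Il15ra to Il15 (1.98 to 2.24).

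Il15, the cytokine of NK cells and CD8+ T cells, rose with both interferons in both lines. In B16F10 cells it was at 1.82, 0.963 and 1.8 CPM with vehicle, 4.29, 5.86 and 4.0 CPM with IFNγ and 3.27, 2.22 and 2.26 CPM with IFNβ. Neither interferon group overlapped vehicle. The log2 fold change was 1.63 ± 0.219 (adjusted p = 1.61e-11, edgeR) with IFNγ and 0.77 ± 0.231 (adjusted p = 0.00557, edgeR) with IFNβ. The call with IFNβ was lost without vehicle replicate 2 or without IFNβ replicate 1 (adjusted p up to 0.134, edgeR). In 6694c2 cells the levels were 0.934, 0.223 and 0.853 CPM with vehicle, 2.33, 1.78 and 2.31 CPM with IFNγ and 1.53, 0.814 and 1.66 CPM with IFNβ. The IFNβ and vehicle libraries overlapped, and vehicle replicate 2 was the lowest of its group. On the log2 scale the change was 1.71 ± 0.365 (adjusted p = 0.000568, edgeR) with IFNγ and 1.06 ± 0.375 (adjusted p = 0.0428, edgeR) with IFNβ, and the latter was not called in 6 of 20 alternatives, among them without vehicle replicate 2, IFNβ replicate 1 or IFNβ replicate 3. With STING agonist, Il15 was at 1.31 to 2.12 CPM in B16F10 cells and 0.473 to 0.774 CPM in 6694c2 cells, and did not pass the test.

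Il15ra, the chain that presents IL-15, changed more in 6694c2 cells than in B16F10 cells with IFNγ. B16F10 libraries held 0.717, 0.842 and 0.626 CPM with vehicle and 3.37, 4.6 and 2.46 CPM with IFNγ, which is 2.24 ± 0.295 on the log2 scale (adjusted p = 6.08e-12, edgeR). 6694c2 libraries held 0.525, 0.112 and 0.549 CPM with vehicle and 9.28, 7.85 and 9.01 CPM with IFNγ, which is 4.48 ± 0.314 (adjusted p = 1.86e-15, edgeR). The groups did not overlap in either line. The difference between the lines was 2.23 ± 0.525 on the log2 scale (adjusted p = 0.00321, edgeR, over all 24 libraries), where 4.52% of all genes had a larger effect in 6694c2 cells. It was the 1 call among the 9 genes for this difference. With IFNβ, Il15ra was at 1.13, 0.843 and 1.7 CPM in B16F10 cells, which did not pass the test (log2 fold change 0.75 ± 0.326, adjusted p = 0.0836, edgeR), and at 1.16, 2.4 and 1.66 CPM in 6694c2 cells (2.15 ± 0.377, adjusted p = 2.40e-05, edgeR). The difference of these effects between the lines did not pass (1.38 ± 0.564, adjusted p = 0.114, edgeR). Per kilobase, Il15ra was below Il15 in 6694c2 cells with vehicle (ratio 0.289 ± 0.0364, n = 3) and above it with IFNγ (2.08 ± 0.142). This was again at the smallest exact permutation p of 0.1. In B16F10 cells the ratio was 0.274 ± 0.148 and 0.371 ± 0.0499 (exact permutation p = 0.4). The 6694c2 vehicle ratios rest on 2 to 9 reads of Il15ra and 4 to 16 of Il15 per library. Which gene is above the other depends on the exonic lengths used (4446 and 2261 bases).

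**Figure D3:**
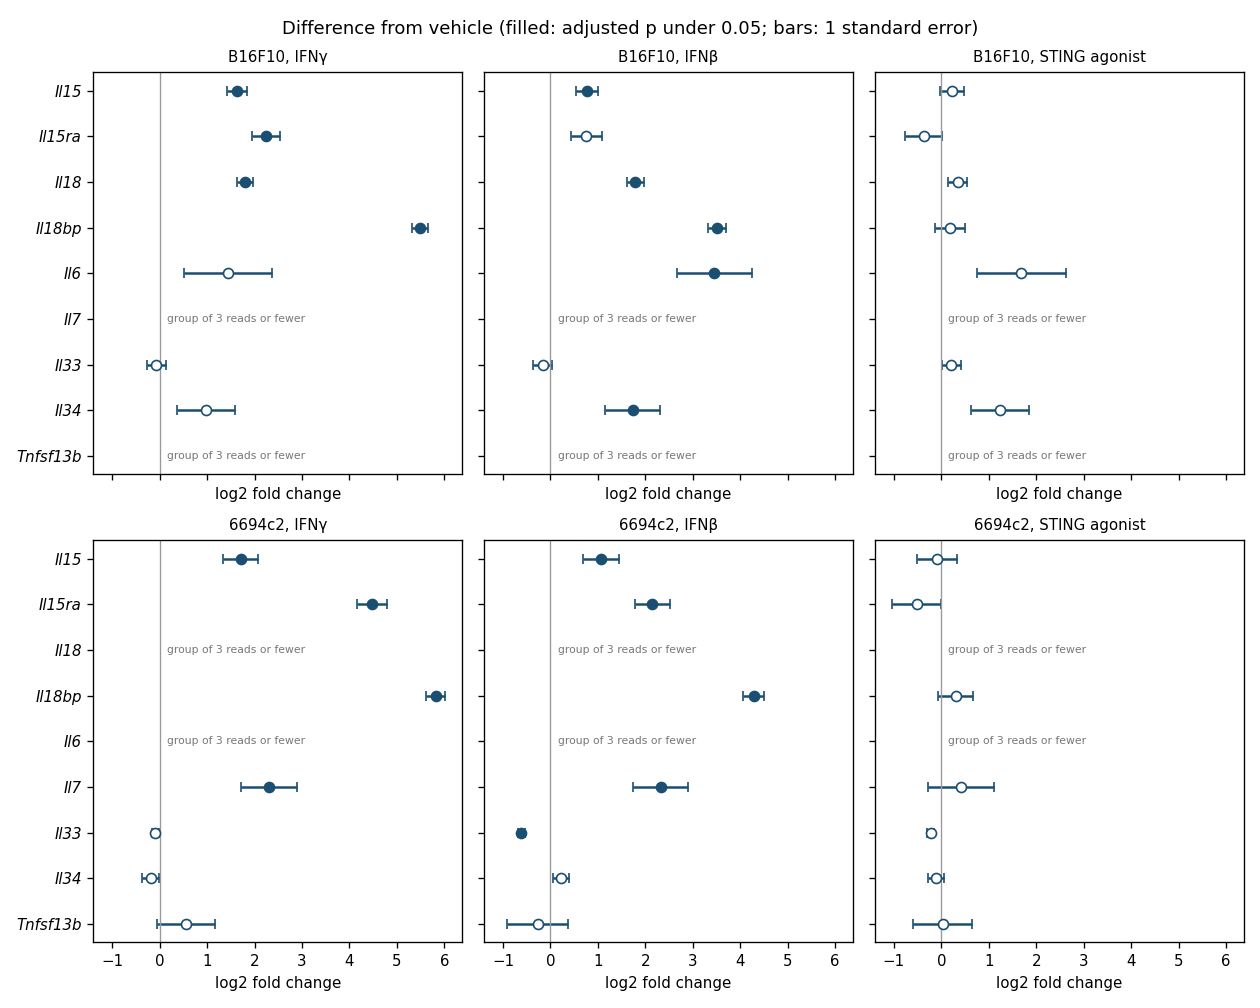
Log2 fold change against vehicle of the 9 genes for each agent in each line, with bars of 1 standard error and filled points where the adjusted p is under 0.05. Comparisons with a group of 3 reads or fewer are written as such and have no point. Il18bp stands at 5.49 and 5.82 with IFNγ in B16F10 and 6694c2 cells, and both STING agonist panels hold open points only.

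IL-7, which sustains T cells, was a transcript of 6694c2 cells raised there by both interferons. Its levels were 0.233, 0 and 0.305 CPM with vehicle, 0.611, 0.981 and 1.02 CPM with IFNγ and 0.932, 1.09 and 0.627 CPM with IFNβ. Vehicle lay below both interferon groups. The log2 fold change was 2.30 ± 0.591 (adjusted p = 0.00459, edgeR) with IFNγ and 2.32 ± 0.582 (adjusted p = 0.00282, edgeR) with IFNβ, and the former lost its call without vehicle replicate 2 (adjusted p = 0.0519, edgeR). Without that library the values were 1.71 and 1.72, and without vehicle replicate 3 they were 2.90 and 2.91. In B16F10 cells Il7 had 0 reads with vehicle, 9 with IFNγ, 1 with IFNβ and 3 with STING agonist. The IFNγ level was 3 times the floor of 3 reads over the vehicle group. The lower exact 95% limit of its ratio to vehicle was 1.98, counting error only. That level did not pass the test (adjusted p = 0.0561, edgeR). Of 5664 exonic bases, 105 overlap a gene on the other strand, Gm16685.

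Il6 was near the limit of detection and was raised by IFNβ. Its B16F10 levels were 0.0478, 0.0401 and 0.0782 CPM with vehicle (4 reads) and 0.525, 0.69 and 0.768 CPM with IFNβ (50 reads). On the log2 scale the change was 3.45 ± 0.791 (adjusted p = 0.000155, edgeR), without overlap. IFNγ replicate 1 held 0.366 CPM, while the other IFNγ libraries held 0 and 0.088 CPM, and this group did not pass the test against vehicle (adjusted p = 0.304, edgeR). In 6694c2 cells, Il6 had 0 reads in the vehicle and STING agonist groups, 8 with IFNγ and 26 with IFNβ (0.2, 0.317 and 0.479 CPM). The IFNβ level was 5.62 times the floor of 3 reads over the vehicle group. The lower exact 95% limit of its ratio to vehicle was 4.26, counting error only. That level passed the test (adjusted p = 0.0057, edgeR). The IFNγ level did not pass it (adjusted p = 0.0886, edgeR). DESeq2 gave no adjusted p for Il6 with IFNβ in either line, so it made no call there.

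Il33 was the most abundant of the 9 in 6694c2 cells, at 30.2 ± 1.59 CPM per kilobase with vehicle (n = 3), and IFNβ lowered it. It was at 91.8, 82.6 and 87.2 CPM with vehicle and 55.2, 52.1 and 58.4 CPM with IFNβ. The groups did not overlap, and the log2 fold change was -0.62 ± 0.0735 (adjusted p = 6.75e-09, edgeR). IFNγ libraries held 84.5, 81.9 and 76.3 CPM and did not pass the test (-0.09 ± 0.073, adjusted p = 0.508, edgeR). With STING agonist the levels were 70.2, 79.6 and 74.7 CPM, all below vehicle, but the log2 fold change of -0.22 ± 0.0726 did not pass (adjusted p = 0.305, edgeR). B16F10 cells held 1.97 to 3.78 CPM over their 12 libraries and no treatment passed the test there. Their vehicle level was 3.58% of that of 6694c2 cells, beside a median share of 0.154% to 0.21% for genes of 6694c2 cells in these libraries. Those genes were chosen below 2%, so a level of 3.58% lies above their share by construction. The part of such reads was not tested. The IFNβ effect did not pass a test of difference between the lines (-0.49 ± 0.193, adjusted p = 0.0955, edgeR).

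Il34 was likewise higher in 6694c2 cells, at 4.38, 5.58 and 4.82 CPM with vehicle, and no agent changed it there past the threshold. In B16F10 cells it was at 0.478, 0.0802 and 0.0782 CPM with vehicle and at 0.646, 0.652 and 0.728 CPM with IFNβ. Vehicle replicate 1 was several times above the other vehicle libraries. The log2 fold change was 1.73 ± 0.572 (adjusted p = 0.0139, edgeR), and it was not called without vehicle replicate 2 or without vehicle replicate 3 (adjusted p up to 0.124, edgeR). Without vehicle replicate 1 it was 3.01. The difference of the IFNβ effect between the lines was -1.55 ± 0.527 (adjusted p = 0.0467, edgeR), where 5.90% of all genes had a smaller effect in 6694c2 cells, and it was lost in 16 of 30 alternatives and was -2.76 without B16F10 vehicle replicate 1. Of its 1959 exonic bases, 97 overlap Gm15894 and Gm15895 on the other strand. Tnfsf13b, the B cell survival factor BAFF, was at 0.233, 0.279 and 0.427 CPM in 6694c2 cells with vehicle, between 0.158 and 0.778 CPM with the agents, and passed no test against vehicle. B16F10 cells had 0 reads of it with vehicle and with IFNβ, 6 with IFNγ and 1 with STING agonist.

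The interferons were also compared with each other. Their doses were in unlike units (100 ng/mL IFNγ, 1000 U/mL IFNβ), so the differences hold for these doses at 24 h. In B16F10 cells, 3 of 9 genes were lower with IFNβ than with IFNγ (Il15, Il15ra and Il18bp, against 7.85% of all genes) and Il6 was higher (against 6.65%). The log2 difference was -1.97 ± 0.114 for Il18bp (adjusted p = 1.47e-48, edgeR), -1.49 ± 0.272 for Il15ra (adjusted p = 1.77e-06, edgeR) and -0.85 ± 0.201 for Il15 (adjusted p = 0.000434, edgeR). Il18 differed by -0.01 ± 0.145 (adjusted p = 1, edgeR). For Il6 the difference of 2.01 ± 0.667 (adjusted p = 0.0232, edgeR) was not called in 6 of 20 alternatives, among them DESeq2 and without IFNγ replicate 2 or 3 or IFNβ replicate 2 or 3, and it was 3.72 without IFNγ replicate 1. In 6694c2 cells, 3 of 9 were lower with IFNβ (Il15ra, Il18bp and Il33, against 6.57% of all genes). The log2 difference was -2.34 ± 0.228 for Il15ra (adjusted p = 5.39e-11, edgeR), -1.55 ± 0.119 for Il18bp (adjusted p = 5.82e-14, edgeR) and -0.53 ± 0.0732 for Il33 (adjusted p = 3.21e-07, edgeR). Il7 differed by 0.01 ± 0.438 there (adjusted p = 1, edgeR).

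**Figure D4:**
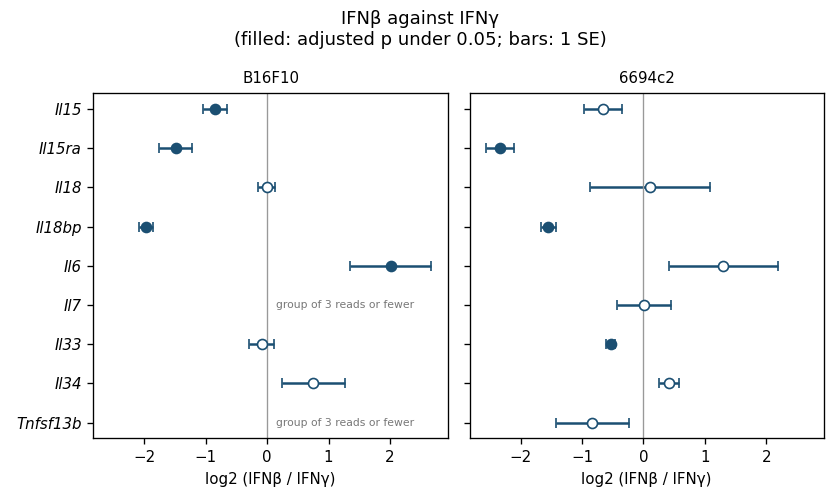
Log2 difference of IFNβ from IFNγ for the 9 genes in each line, with bars of 1 standard error and filled points where the adjusted p is under 0.05. Il18bp and Il15ra lie left of 0 in both lines (-1.97 and -1.49 in B16F10 cells, -1.55 and -2.34 in 6694c2 cells).

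With STING agonist, 0 of 9 genes were called by edgeR in B16F10 cells, where 3.46% of all genes were called, and 0 of 9 in 6694c2 cells, where 0.360% were. DESeq2 called 0 in each line as well. At an unadjusted p under 0.05, 1 gene passed in each line, Il34 in B16F10 cells and Il33 in 6694c2 cells. The share of all genes passing that looser rule was not counted, so no result is drawn from such passes, here or below. The difference of the STING agonist effect between the lines had 0 calls by edgeR (2.12% of all genes) and by DESeq2, with Il33 and Il34 under an unadjusted p of 0.05. Among genes with more than 3 reads in both groups, standard errors of these log2 fold changes in B16F10 cells ran from 0.2 for Il33 to 0.94 for Il6, so a change of Il6 had to be large to be detectable at this depth.

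With vehicle, the lines differed in 6 of the 9 genes. Over all genes tested, 58.0% were called in either direction, so this count is near that share. In 6694c2 cells, Il7, Il33, Il34 and Tnfsf13b were higher than in B16F10 cells (28.7% of all genes were) and Il15 and Il18 were lower (29.3% were). The log2 difference was 4.80 ± 0.12 for Il33 (adjusted p = 2.18e-31, edgeR) and 4.61 ± 0.352 for Il34 (adjusted p = 5.34e-15, edgeR), the latter 5.81 without B16F10 vehicle replicate 1. Tnfsf13b was at 7.4 and Il7 at 4.16 times the floor of 3 reads over the B16F10 group, with overlap for Il7. The lower exact 95% limits of their ratios to the B16F10 group were 5.35 and 2.74, counting error only. For Il18 the ratio of 6694c2 to B16F10 cells was 0.0184 (exact 95% interval 0.00221 to 0.0675, counting error only). Il15 was lower by a log2 difference of -1.19 ± 0.373 (adjusted p = 0.00566, edgeR) and lost its call without 6694c2 vehicle replicate 2. A line is a single source, so these differences are between 2 lines and not between tumor types.

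The chains that receive these cytokines were also read in the tumor cells. Of 12 tested receptor chains, IFNγ raised 3 in B16F10 cells (Il2rb, Il2rg and Il1rap) and 3 in 6694c2 cells (Il18r1, Il18rap and Il6st), and IFNβ raised Il1rap in B16F10 cells and Il6ra and Il1rap in 6694c2 cells. Beside these counts, 2529 of 21138 genes were higher with IFNγ in B16F10 cells, and 12.7% of all genes with IFNβ. In 6694c2 cells, 7.89% and 10.4% of all genes were higher with IFNγ and IFNβ. The counts of 1 and 2 of 12 with IFNβ are near the share over all genes. Their median log2 fold change was 0.13 and 0.14 with IFNγ and IFNβ in B16F10 cells and 0.26 and 0.22 in 6694c2 cells. Il18rap, the accessory chain of the IL-18 receptor, rose in 6694c2 cells from 12.1 ± 0.532 to 58.7 ± 5.11 CPM with IFNγ (log2 fold change 2.29 ± 0.094, adjusted p = 1.47e-23, edgeR). Il18r1, the ligand-binding chain, rose there from 0.458 ± 0.302 to 2.57 ± 0.11 CPM (adjusted p = 3.11e-06, edgeR). In B16F10 cells, Il2rg, the common γ chain, rose from 0.259 ± 0.1 to 1.1 ± 0.193 CPM with IFNγ (19 and 78 reads over the groups, adjusted p = 0.000361, edgeR). Il2rb, the IL-2Rβ chain, rose there with IFNγ from 0.224 ± 0.0972 to 0.687 ± 0.218 CPM (16 and 48 reads over the groups, adjusted p = 0.0393, edgeR). In those IFNγ libraries 3 of 7 B cell markers were also called higher, and the part of such reads in these calls was not tested. Il1rap, shared by the IL-1 and IL-33 receptors, rose in 6694c2 cells with IFNβ from 1.73 ± 0.423 to 4.53 ± 0.189 CPM (adjusted p = 4.56e-06, edgeR).

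Some of the genes that process or release the cytokines were called as well. Of 10 tested, IFNγ raised 7 (2529 of 21138 genes were higher) and IFNβ 3 (Casp4, Casp8 and Gsdmd, against 12.7% of all genes) in B16F10 cells, with medians of 0.85 and 0.18 on the log2 scale. In 6694c2 cells IFNγ raised 5 (Casp1, Casp4, Casp8, Gsdmd and Furin, against 7.89%) and IFNβ 4 (the same without Casp8, against 10.4%), with medians of 0.49 and 0.32. With STING agonist 1 was lower in B16F10 cells, the protease gene Furin, where 1.53% of all genes were lower. Gsdmd, the pore former through which IL-18 can leave a cell, went from 1.2 ± 0.205 to 22.2 ± 4.25 CPM with IFNγ in B16F10 cells (adjusted p = 7.47e-88, edgeR) and from 58.2 ± 2.93 to 162.5 ± 5.95 CPM in 6694c2 cells (adjusted p = 7.78e-22, edgeR). Casp1, the protease that matures IL-18, rose in 6694c2 cells from 0.606 ± 0.139 to 11.1 ± 1.79 CPM with IFNγ (adjusted p = 1.87e-18, edgeR) and to 3.07 ± 0.623 CPM with IFNβ (adjusted p = 2.45e-09, edgeR). Casp4, which cleaves Gsdmd, rose in both lines, in 6694c2 cells from 0.804 ± 0.402 to 10.7 ± 1.64 CPM with IFNγ (adjusted p = 1.47e-17, edgeR). Pycard, the inflammasome adaptor, rose in B16F10 cells from 1.74 ± 0.316 to 3.57 ± 0.419 CPM with IFNγ (adjusted p = 0.000116, edgeR).

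Of 18 related cytokines tested, IFNγ raised Csf1 and lowered Il23a in B16F10 cells, and raised Lif and Csf1 and lowered Il1rn in 6694c2 cells (median log2 fold change 0.38 and -0.08). IFNβ raised 4 in B16F10 cells (Lif, Clcf1, Cntf and Csf1) and lowered Il23a, and raised 3 in 6694c2 cells (Lif, Clcf1 and Csf1), with medians of 0.81 and 0.04. Over all genes, 10.8% were lower with IFNγ and 11.2% with IFNβ in B16F10 cells and 5.66% with IFNγ in 6694c2 cells, and the shares called higher stand above, so these counts show nothing particular to the list. Csf1, which shares its receptor with IL-34, rose with both interferons in both lines, from 23.6 ± 2.16 to 100.8 ± 6.47 CPM with IFNγ in B16F10 cells (adjusted p = 9.40e-101, edgeR) and from 3.17 ± 0.444 to 23.3 ± 1.75 CPM with IFNβ in 6694c2 cells (adjusted p = 2.36e-21, edgeR). Il1rn, the IL-1 receptor antagonist, fell in 6694c2 cells from 54.7 ± 4.67 to 15.4 ± 1.45 CPM with IFNγ (adjusted p = 7.83e-21, edgeR). Il23a fell in B16F10 cells with IFNγ from 0.489 ± 0.0166 to 0.09 ± 0.0881 CPM (35 and 6 reads over the groups, adjusted p = 0.0136, edgeR). Lif and Cntf, which signal through gp130 as IL-6 does, rose in B16F10 cells with IFNβ, from 1.44 ± 0.26 to 3.84 ± 0.403 CPM (adjusted p = 6.36e-08, edgeR) and from 1.06 ± 0.165 to 2.43 ± 0.254 CPM (adjusted p = 0.0002, edgeR).

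Of 22 other interleukin receptors tested, IFNγ raised 5 (Il12rb1, Il13ra1, Il17rc, Lifr and Osmr) and lowered Il10rb in B16F10 cells, and raised 7 and lowered Il1r1 and Lifr in 6694c2 cells (median log2 fold change 0.39 and 0.11). IFNβ raised 4 in B16F10 cells (Il5ra, Il12rb1, Il13ra1 and Il17rc), and raised 7 and lowered Il1r1 in 6694c2 cells (medians 0.10 and 0.28). The shares of all genes called higher were 12.7% with IFNβ in B16F10 cells and 7.89% and 10.4% with IFNγ and IFNβ in 6694c2 cells, and 2529 of 21138 genes were higher with IFNγ in B16F10 cells. Called lower were 10.8% of all genes with IFNγ in B16F10 cells, and 5.66% and 7.86% with IFNγ and IFNβ in 6694c2 cells. The counts of receptors called lower are near these shares and show nothing particular to the list. Il12rb1, a chain of the IL-12 receptor, rose from 2.13 ± 0.265 to 53.4 ± 8.97 CPM with IFNγ in B16F10 cells (adjusted p = 3.73e-127, edgeR) and from 0.176 ± 0.064 to 9.25 ± 0.936 CPM in 6694c2 cells (adjusted p = 1.48e-18, edgeR). Il17rc, a chain of the IL-17 receptor, rose from 45.6 ± 1.28 to 161.7 ± 9.31 CPM in B16F10 cells (adjusted p = 2.25e-96, edgeR), and Il13ra1 rose from 9.07 ± 0.289 to 54.5 ± 1.49 CPM in 6694c2 cells (adjusted p = 2.53e-25, edgeR), both with IFNγ. With STING agonist, 2 of 22 were higher in B16F10 cells (1.93% of all genes were), Il5ra (0.27 ± 0.0672 to 1.78 ± 0.558 CPM, adjusted p = 1.04e-06, edgeR) and Il1r1 (1 read over the vehicle group, 21 with STING agonist, adjusted p = 0.0334, edgeR). In those libraries Il5ra was at 0.72% and Il1r1 at 0.893% of the highest 6694c2 level, beside a share of 0.79% to 1.01% for genes of 6694c2 cells, and 5 of 7 ductal epithelial markers were called higher. With IFNβ, Il5ra was at 0.295% of it in B16F10 libraries, beside a share of 0.193% to 0.496%, and 6 of 7 ductal markers were called higher. The part of such reads in these calls was not tested.

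The genes whose patterns were most like those of the members were also sought. Over the 24 libraries, centred on each line's vehicle mean, the log2 level of Il18bp had Pearson r = 0.991 with Tap2 and 0.988 with both Psmb9 and Olfr56, and that of Il15ra had 0.965 with Osmr, 0.961 with Cxcl11 and 0.955 with Psmb8, the highest among 10800 genes. For Il15 they were Nod1 (0.901), Irf2 (0.896) and Parp3 (0.894), and for Il18 Ccdc25 (0.960). Il18 had between 0 and 7 reads in each 6694c2 library. For Il33 the highest r was 0.885, with Golt1b, and for Il34 0.803, with Exo5. It was 0.911 for Il7, with Pgm1, and 0.887 for Il6, with Nfatc2ip, both members with few reads. The points share 8 groups and the libraries' depth, so r describes the likeness of patterns and is no test.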

How the data were processed

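RNA from B16F10 and 6694c2 cells was sequenced in 24 bulk libraries, which were assigned to 8 groups by the labels. Reads were trimmed by cutadapt, mapped by STAR and summarised over genes by Rsubread, and the authors deposited the resulting raw counts. The strand setting and the annotation used for counting were not given in the sources used here. Of 49315 genes, 49056 were in GENCODE M21 (GRCm38) and 91.4% of these had the same start, end and strand, so GRCm38 coordinates are printed. The 6 single-cell samples were not analysed here. Some details of the background of the 6694c2 line are not reported here.

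Genes with at least 10 reads over all libraries were kept. Each line was fitted over its 12 libraries with TMM normalization and edgeR 4.0.16 (limma 3.58.1, R 4.3.3; quasi-likelihood test, Benjamini-Hochberg adjustment), and line differences over all 24. DESeq2 1.42.0, which the study used for its own tests, was an alternative. CPM are scaled to TMM library sizes, and standard errors were derived from each fold change and its F value. A gene with 0 reads in a group was set against a floor of 3 reads over that group, and intervals and floors cover counting error only. Simulated counts with known changes were used to check the fit. All 9 genes were reported in each comparison. From lists of receptors, processing genes and cytokines, up to 3 genes per list and comparison were named with values, by smallest p among those called with an absolute log2 fold change over 1 and no overlap. Other list genes are named without values and, like the marker genes named, were chosen after their values were seen. Likeness used log2(CPM + 0.5) and genes of at least 1 CPM in a group of both lines. Of 29 related cytokines listed, 28 had a symbol in the annotation. The genes and lists were chosen with earlier results of these data known. Replicates correlated at r = 0.994 to 0.998 over genes and no pair agreed within sampling noise. Alternatives were DESeq2, a robust fit, RLE normalization, a filterByExpr filter or none, a replicate block, other libraries in the fit, each library left out, and setting aside members whose vehicle level was more than 10 times greater in the other line.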

Additional observations from a re-analysis of the deposited data

Results flagged for a closer look

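The effect of IFNγ on Il15ra differed between the lines by a test of the difference itself: it was larger in 6694c2 cells by 2.23 on the log2 scale (adjusted p = 0.00321, edgeR). Over 30 alternatives this value ran from 1.77 to 2.53. Vehicle replicate 2 of 6694c2 cells (0.112 CPM) stood below the other vehicle libraries of that line (0.525 and 0.549 CPM). The effect of IFNβ on Il34 also differed, by -1.55 (adjusted p = 0.0467, edgeR), with higher values in each of 3 B16F10 IFNβ libraries than in each of 3 vehicle libraries and overlapping groups in 6694c2 cells. That call was lost in 16 of 30 alternatives, with values from -2.76 to -1.10, and B16F10 vehicle replicate 1 (0.478 CPM) stood above the other vehicle libraries (0.0802 and 0.0782 CPM).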

How the results depend on the processing

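Of 108 values (9 genes in 12 comparisons), 34 were called and 27 of these stayed called under every alternative that gave them an adjusted p (24 had one in each), while 65 of the 74 others were called under none. DESeq2 gave no adjusted p for Il6 with IFNβ in either line. No called value changed sign, and 26 values that were not called changed sign in some alternative, uncalled there too. With each library left out in turn, the number of the 9 genes called ranged from 3 to 6 for IFNβ in B16F10 cells (5 with all libraries, 3 without vehicle replicate 2), from 1 to 2 for the difference of the IFNγ effect between the lines (2 without B16F10 vehicle replicate 1), from 0 to 2 for that of IFNβ and from 0 to 1 for that of the STING agonist (1 without B16F10 vehicle replicate 1). DESeq2 called 2 for the difference of the IFNβ effect, against 1 (Il33 added). It called 4 of 9 with IFNβ in 6694c2 cells, against 6 (Il15 at an adjusted p of 0.0616), 4 with IFNβ in B16F10 cells, against 5, and 3 for IFNβ against IFNγ in B16F10 cells, against 4 (Il6 at 0.0691). The cause was not tested. Same-numbered libraries did not deviate together (3 of 18 pairs in each line had a correlation over 0.1, median -0.00443 in B16F10 and -0.0101 in 6694c2 cells). No pairing by number was detected, which cannot exclude that same-numbered libraries were cultured or prepared together, and the labels do not say. With the replicate number as a block, 5 of the 9 genes were called for IFNβ in B16F10 cells and 4 for IFNγ in each line, as without it. Il6, Il7 and Tnfsf13b had few reads, and depth limits what can be said of them.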
